A study of Rattus norvegicus with 24 samples.

Results

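The 8 genes described here encode enzymes of hepatic gluconeogenesis, the transporter that serves its last step, and regulators of their transcription: Pck1, Pc, Fbp1, G6pc1, Slc37a4, Ppargc1a, Foxo1 and Crtc2. They were taken by symbol, as textbook members of the pathway, with earlier results of these data known. They are 8 of 22093 genes with a single annotated symbol on the array. Each had 1 probe set, each lay above the filter on low values on all 24 arrays, and all 8 were among the 19686 genes tested. Liver RNA came from male RccHan Wistar rats that were 7 to 8 weeks old, given metformin at 800 mg/kg by gavage or, as controls, the vehicle of ethanol, Kolliphor HS 15 and tap water, for 1, 3 or 14 consecutive days. Metformin is a biguanide that lowers blood glucose. Each of the 6 groups had 4 arrays, 1 rat per array, although the design text gives 5 animals per group. Every day had its own controls, all animals had free access to chow, and the labels give neither feeding state nor hour of death.

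Gluconeogenesis makes glucose from lactate, pyruvate, glycerol and amino acids, and in liver it runs mainly in periportal hepatocytes. Pyruvate is carboxylated in mitochondria, the product is turned into phosphoenolpyruvate, and the pathway then follows the glycolytic steps in reverse except where a phosphatase bypasses a kinase. Glucagon, through cyclic AMP, the factor CREB and its coactivator CRTC2, raises transcription of these enzymes, the coactivator PGC-1alpha and FOXO1 add to it, and insulin opposes it by excluding FOXO1 from the nucleus.

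The RefSeq promoter table (build GRCr8) held windows of 300 bases, 250 before to 50 after an annotated start, for 7 of the 8 genes. They were searched on both strands for 3 short motifs: TGACGT, the half-site of the cyclic AMP response element, GTAAACA, a forkhead motif, and CAAAACA, the core of the insulin response sequence. The motifs do not overlap one another, but the full palindrome of the cyclic AMP element holds its half-site on both strands. Over all 33469 windows of this length in the table, 7.94% held TGACGT, 3.78% held GTAAACA and 6.28% held CAAAACA. The windows of 4 genes are printed because they show where the letters of the hormone-linked motifs lie in the genes that the results below turn on, and in Ppargc1a, which encodes PGC-1alpha. All are on the plus strand of the reference genome, not of these animals, and capitals mark the matches. The Pck1 window is chr3:182348322-182348621, with the half-site on the other strand 91 bases before the start. The G6pc1 window is chr10:86807409-86807708, with the insulin response core on the other strand 186 bases before the start. The Ppargc1a window is chr14:63634058-63634357, with half-sites on both strands beginning 181 and 179 bases before its annotated start, which lies far inside the span of the whole gene, so it is an internal start. The Crtc2 window is chr2:178007024-178007323, with the forkhead motif 75 bases before the start.
Pck1: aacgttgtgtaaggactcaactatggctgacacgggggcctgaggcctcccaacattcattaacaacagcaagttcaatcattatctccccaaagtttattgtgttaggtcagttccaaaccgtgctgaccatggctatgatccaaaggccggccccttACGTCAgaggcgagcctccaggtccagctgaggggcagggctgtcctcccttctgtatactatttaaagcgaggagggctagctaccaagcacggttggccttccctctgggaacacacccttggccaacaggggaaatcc
G6pc1: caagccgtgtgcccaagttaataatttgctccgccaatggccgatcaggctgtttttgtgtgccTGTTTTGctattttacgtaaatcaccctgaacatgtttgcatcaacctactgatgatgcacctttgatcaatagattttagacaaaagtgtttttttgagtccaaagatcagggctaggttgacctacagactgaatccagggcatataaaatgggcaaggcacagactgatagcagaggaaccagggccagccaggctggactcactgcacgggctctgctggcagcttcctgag
Ppargc1a: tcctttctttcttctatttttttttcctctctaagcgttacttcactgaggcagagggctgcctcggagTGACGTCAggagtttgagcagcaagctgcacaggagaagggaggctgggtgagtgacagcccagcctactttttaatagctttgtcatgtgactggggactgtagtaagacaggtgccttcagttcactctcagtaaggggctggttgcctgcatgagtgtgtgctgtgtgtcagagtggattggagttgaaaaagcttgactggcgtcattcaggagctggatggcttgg
Crtc2: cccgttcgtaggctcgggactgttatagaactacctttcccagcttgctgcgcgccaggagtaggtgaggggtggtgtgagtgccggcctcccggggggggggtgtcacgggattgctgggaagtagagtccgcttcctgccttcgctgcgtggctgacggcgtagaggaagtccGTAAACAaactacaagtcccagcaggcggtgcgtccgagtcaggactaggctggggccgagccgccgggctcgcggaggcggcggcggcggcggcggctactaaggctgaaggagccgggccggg
The Slc37a4 windows overlap one another and held the same single TGACGT match. The Fbp1 and Foxo1 windows held none of the motifs, and the Fbp1 window lies inside the span of its gene. A match is a description of letters and not of a bound site.

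All values are log2 of the deposited array intensity. They compare 1 gene across livers and not one gene with another, because probe sets differ in brightness. Errors beside group means are SD with n = 4 rats. Differences are metformin minus control with the standard error of a linear model over all arrays (limma), and a gene was called when its Benjamini-Hochberg adjusted p, over the whole set of tested genes, was under 0.05. The 24 arrays had medians of 4.80 to 5.11, and within a group they correlated at 0.989 or more. Hepatocyte markers marked the tissue as liver: the log2 of their summed intensity was 22.07 to 22.20 in metformin livers of day 14 and 22.19 to 22.24 in control livers of that day, and all 24 livers lay between 22.07 and 22.24. In whole tissue, fewer cells of a type and less RNA per cell cannot be told apart.

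Pck1, on chromosome 3 (GRCr8, 182348572 to 182354521), encodes cytosolic phosphoenolpyruvate carboxykinase, which turns oxaloacetate into phosphoenolpyruvate. On day 14 it measured 14.53, 11.66, 14.82 and 14.44 in metformin livers, against 17.89, 17.09, 17.93 and 17.48 in control livers. Every metformin rat lay below every control rat, and rat 2 lay far below the other metformin rats. The means were 13.86 ± 1.48 in metformin livers and 17.60 ± 0.39 in control livers, a log2 difference of -3.74 ± 0.49 (limma, adjusted p = 0.000521), or 13.3-fold lower. Without metformin rat 2 the difference was -3.00 (adjusted p = 0.000173), and with the 8 arrays of day 14 fitted alone the call was lost (limma, adjusted p = 0.0512).

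Pck1 did not show this difference on the earlier days. On day 1 it measured 17.61, 16.85, 17.91 and 16.53 in metformin livers, against 17.70, 16.73, 17.09 and 17.01 in control livers, a difference of 0.09 ± 0.49 (limma, adjusted p = 0.988). The groups overlapped fully. On day 3 it measured 16.68, 16.64, 17.74 and 17.09 in metformin livers, against 17.60, 18.17, 17.23 and 18.04 in control livers, and the difference of -0.72 ± 0.49 was not called (limma, adjusted p = 0.517), with metformin rat 3 inside the control range. The metformin effect of day 14 minus that of day 1 was -3.83 ± 0.69 (limma, adjusted p = 0.00807). The effect of day 14 minus that of day 3 was -3.01 ± 0.69, with an unadjusted p of 0.000248 and an adjusted p of 0.282 in a comparison that called 1 of 19686 genes. In order of mean level, control livers of day 3 were highest at 17.76, and neighbours in that order overlapped down to metformin livers of day 3 at 17.04. Metformin livers of day 14 lay 3.18 below those and did not overlap them.

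G6pc1, on chromosome 10 (86807659 to 86819023), encodes the catalytic subunit of glucose-6-phosphatase, which releases free glucose. Its means were lower in metformin livers on all 3 days, and on none was the difference called. On day 1 it measured 13.54, 12.86, 15.06 and 12.49 in metformin livers, against 14.74, 12.55, 14.45 and 14.22 in control livers. The rats of both groups were widely spread, and the difference was -0.50 ± 0.50 (limma, adjusted p = 0.883). On day 3 it measured 14.67, 14.01, 14.61 and 14.37 in metformin livers, against 14.12, 15.94, 15.44 and 15.42 in control livers. The control rat at 14.12 lay among the metformin rats, and the difference was -0.81 ± 0.50 (limma, adjusted p = 0.479). On day 14 it measured 13.38, 14.58, 13.51 and 13.04 in metformin livers, against 14.30, 14.38, 15.01 and 14.84 in control livers. Metformin rat 2, the lowest for Pck1, was the highest of its group for G6pc1 and the only one inside the control range. The difference was -1.0 ± 0.50 (limma, adjusted p = 0.315), with a 95% confidence interval of -2.04 to 0.03, an interval that includes 0 as well as a large fall. The effect did not pass a test of change between days: day 14 minus day 1 was -0.50 ± 0.70 (limma, adjusted p = 0.831).

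The other enzymes stayed within narrow ranges. Fbp1, on chromosome 17 (2212941 to 2235749), encodes fructose-1,6-bisphosphatase, which bypasses phosphofructokinase. It averaged 15.69 ± 0.09 in metformin livers and 15.80 ± 0.08 in control livers on day 14, a difference of -0.12 ± 0.10 with a 95% confidence interval of -0.32 to 0.09 (limma, adjusted p = 0.612). On day 1 the means were 15.90 ± 0.17 in metformin livers and 15.85 ± 0.17 in control livers, and on day 3 they were 15.76 ± 0.17 in metformin livers and 15.72 ± 0.09 in control livers. Pc, on chromosome 1 (211228708 to 211327792), encodes pyruvate carboxylase, the mitochondrial entry step. It averaged 13.88 ± 0.12 in metformin livers and 13.75 ± 0.21 in control livers on day 1, and 13.57 ± 0.13 in metformin livers and 13.71 ± 0.17 in control livers on day 3. On day 14 it averaged 13.54 ± 0.09 in metformin livers and 13.53 ± 0.12 in control livers, and the 95% confidence interval of that difference ran from -0.20 to 0.22. Slc37a4, on chromosome 8 (53619952 to 53626110), encodes the transporter that carries glucose-6-phosphate into the endoplasmic reticulum for G6pc1. It averaged 9.02 ± 0.26 in metformin livers and 8.95 ± 0.13 in control livers on day 1, 9.02 ± 0.25 in metformin livers and 8.99 ± 0.25 in control livers on day 3, and 8.82 ± 0.20 in metformin livers and 8.81 ± 0.13 in control livers on day 14. Its 95% confidence interval on day 14 was -0.29 to 0.31. Neighbouring groups in the order of level overlapped for G6pc1, Fbp1, Pc and Slc37a4.

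**Figure D1:**
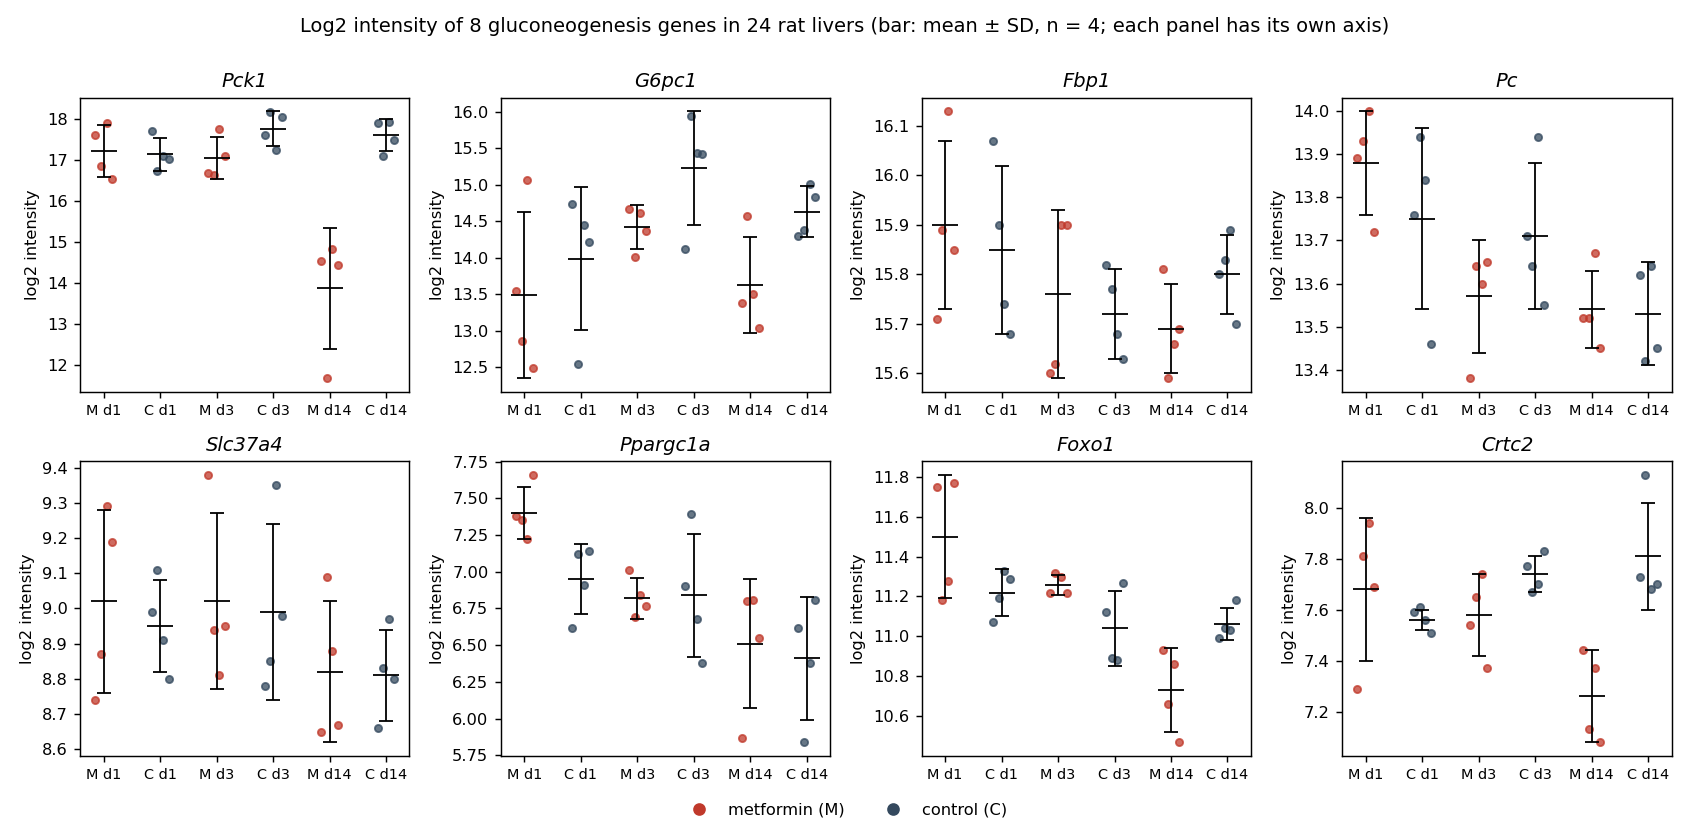
Log2 intensity of each of the 8 genes in the 6 groups, with 1 point per rat, a bar at the group mean and an error bar of 1 SD (n = 4); the days run left to right with metformin (M) left of control (C), and each panel has its own axis. Pck1 in metformin livers of day 14 sits at 11.66 to 14.82, below all other groups, and Crtc2 in that group sits at 7.08 to 7.44, below the control livers of day 14.

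Of the 3 regulators, Crtc2 passed the test on day 14, and Foxo1 and Ppargc1a did not; no test compared the genes with each other. Crtc2, on chromosome 2 (178007233 to 178017397), encodes the coactivator that joins CREB after dephosphorylation. On day 14 it measured 7.44, 7.13, 7.37 and 7.08 in metformin livers, against 7.73, 8.13, 7.68 and 7.70 in control livers. The groups did not overlap, and control rat 2 stood above its group. The difference was -0.55 ± 0.12, or 1.47-fold lower (limma, adjusted p = 0.0159). It was called in 21 of 24 fits that left 1 array out and not in those without control rat 2 (adjusted p = 0.0528), metformin rat 2 (0.0523) or metformin rat 4 (0.0567) of day 14. It was also lost with the arrays of day 14 fitted alone (limma, adjusted p = 0.116) and with every probe set tested (0.0569). On day 1 it measured 7.29, 7.81, 7.94 and 7.69 in metformin livers, against 7.59, 7.61, 7.56 and 7.51 in control livers, a difference of 0.12 that was not called. On day 3 it averaged 7.58 ± 0.16 in metformin livers and 7.74 ± 0.07 in control livers, a difference of -0.17 ± 0.12 (limma, adjusted p = 0.554). The metformin effect of day 14 minus that of day 1 was -0.67 ± 0.17 and lay just under the threshold (limma, adjusted p = 0.04997). It kept that call in 3 of the 24 fits that left 1 array out, over which the adjusted p ran from 0.0124 to 0.111, and lost it under 6 other settings, among them quantile normalization (0.0676).

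Foxo1, also on chromosome 2 (138462974 to 138541420), encodes the forkhead factor that insulin inactivates. On day 14 it measured 10.93, 10.66, 10.86 and 10.47 in metformin livers, against 10.99, 11.04, 11.03 and 11.18 in control livers. The groups did not overlap, yet the difference of -0.33 ± 0.13 was not called (limma, adjusted p = 0.163). On day 1 it measured 11.75, 11.18, 11.28 and 11.77 in metformin livers, against 11.07, 11.19, 11.33 and 11.29 in control livers. Metformin rats 1 and 4 lay above all controls and the others among them, and the difference was 0.28 ± 0.13 (limma, adjusted p = 0.587). On day 3 it averaged 11.26 ± 0.05 in metformin livers and 11.04 ± 0.19 in control livers, a difference of 0.22 ± 0.13 (limma, adjusted p = 0.443). The effect of day 14 minus that of day 1 was -0.61 ± 0.18 and was not called (limma, adjusted p = 0.0852).

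Ppargc1a, on chromosome 14 (63073505 to 63729215), encodes the coactivator PGC-1alpha. On day 1 it measured 7.38, 7.35, 7.22 and 7.66 in metformin livers, against 6.62, 7.12, 6.91 and 7.14 in control livers. Every metformin rat lay above every control rat. The difference of 0.45 ± 0.22 was not called (limma, unadjusted p = 0.0519, adjusted p = 0.615). By day 3 the means were 6.82 ± 0.14 in metformin livers and 6.84 ± 0.42 in control livers, and on day 14 they were 6.51 ± 0.44 in metformin livers and 6.41 ± 0.42 in control livers. The groups overlapped on both days. Metformin livers of day 1 were the highest of all groups, and the neighbours below them overlapped down the whole order.

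**Figure D2:**
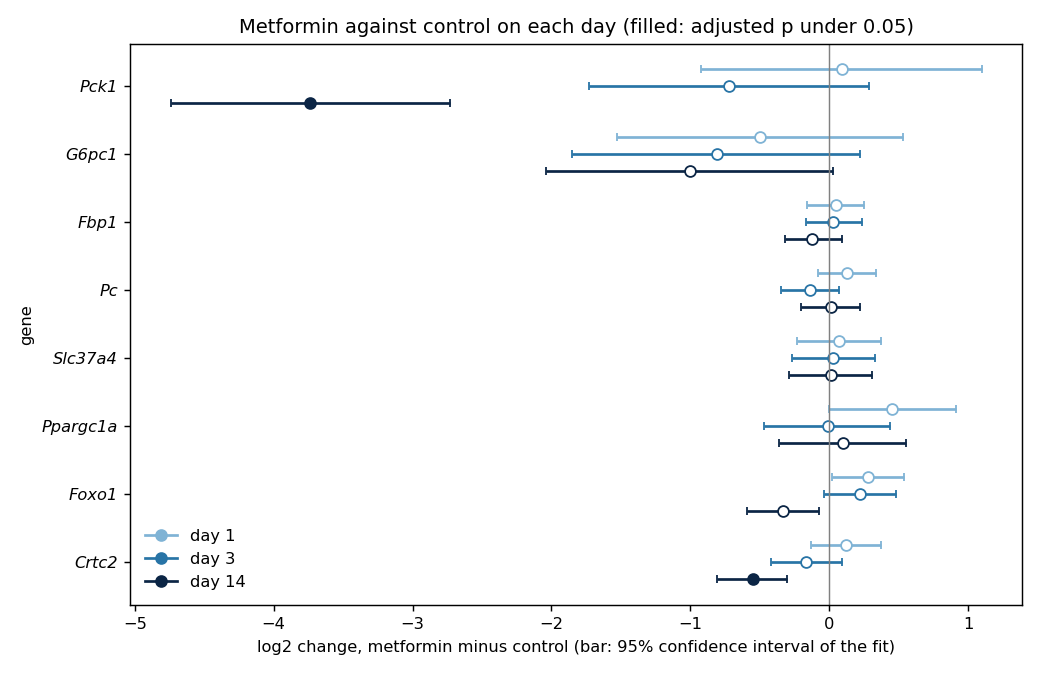
Log2 change of the 8 genes, metformin minus control, on days 1, 3 and 14, with bars for the 95% confidence interval of the model (n = 4 rats per group) and filled points where the adjusted p was under 0.05. Pck1 at -3.74 and Crtc2 at -0.55, both on day 14, are the filled points, and the intervals of G6pc1 are several times wider than those of Fbp1, Pc and Slc37a4.

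The 8 genes were chosen with earlier results of these data known, so the shares below describe them and do not test them as a set. Over the 8 genes, limma called 0 on day 1, against 0.0152% of all tested genes, and 0 on day 3, against 0.254%. At an unadjusted p under 0.05, 1 of 8 (Foxo1) passed on day 1, against 8.22% of tested genes, and 0 of 8 on day 3, against 13.6%. On day 14, 2 of 8 were called lower (Pck1 and Crtc2) and 0 higher, against 1.22% of tested genes called lower, 2.07% called higher and 3.29% called in either direction. At an unadjusted p under 0.05, 3 of 8 passed (Pck1, Foxo1 and Crtc2), against 16.8%. Of the 8, 3 had groups that did not overlap with metformin lower (Pck1, Foxo1 and Crtc2), against 3.34% of tested genes. On day 1, 1 of 8 (Ppargc1a) had groups that did not overlap with metformin higher, against 3.46% of tested genes. The median log2 difference of the 8 genes was 0.11 on day 1, -0.08 on day 3 and -0.22 on day 14, against 0.02, -0.03 and 0.01 over all tested genes. For the effect of day 14 minus that of day 1, 2 of 8 were called lower, against 1.09% of tested genes called lower and 1.66% called in either direction, and 3 of 8 passed unadjusted, against 14.1%. That difference of effects was below 0 in all 8 genes, with a median of -0.43 against 0.00 over all tested genes. For day 14 minus day 3, limma called 0 of 8, against 0.00508% of tested genes, and 3 of 8 passed unadjusted, against 7.54%. For day 3 minus day 1, it called 0 of 8 and 0% of tested genes, and 0 of 8 passed unadjusted, against 10.7%. This difference was also below 0 in all 8 genes, with a median of -0.28 against -0.04 over all tested genes. The differences from day 1 both subtract the effect of that day, which was above 0 in 7 of 8 genes. These differences between days share the groups of day 1, day 3 or day 14 with one another.

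**Figure D3:**
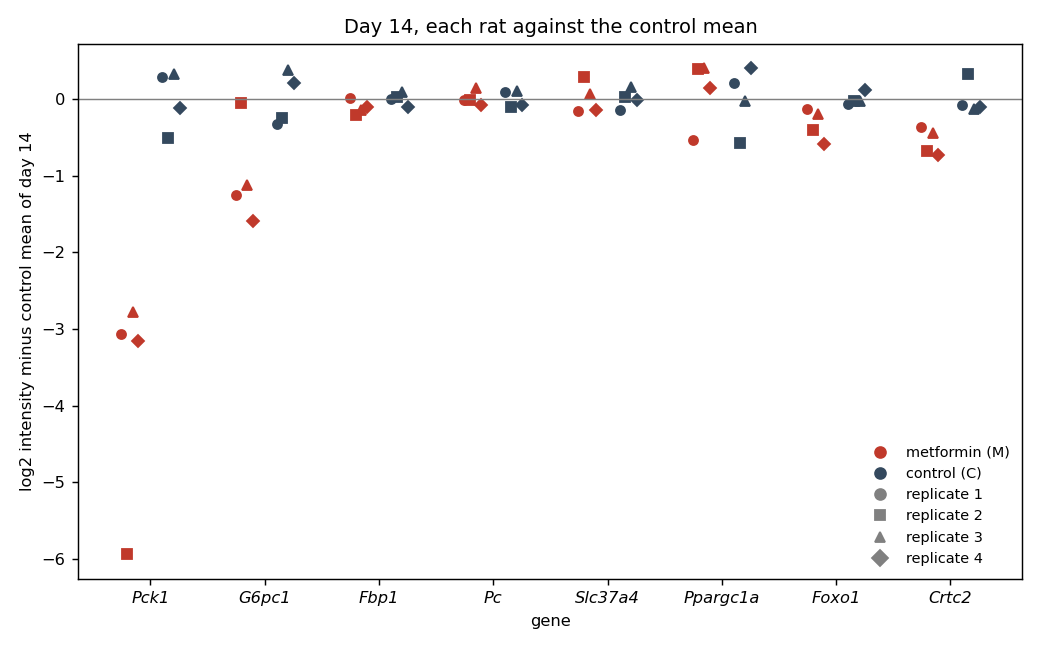
Log2 intensity of each rat of day 14 minus the control mean of that day, for the 8 genes, with metformin left of control and 1 symbol shape per rat (n = 4 per group; a shape shared by both groups links no animals). Metformin rat 2 is lowest for Pck1 at -5.94 and highest of its group for G6pc1 at -0.05, and all metformin rats lie below all control rats for Pck1, Foxo1 and Crtc2.

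Control livers were compared between days to see how far the genes moved without the drug. None of the 8 was called, against 0% of tested genes for day 3 minus day 1, 1.82% for day 14 minus day 1 and 0.889% for day 14 minus day 3. At an unadjusted p under 0.05 (limma), 1 of 8, 2 of 8 and 0 of 8 passed in these comparisons, against 4.71%, 10.1% and 9.87% of tested genes. G6pc1 averaged 15.23 ± 0.78 on day 3 and 13.99 ± 0.98 on day 1 in control livers, a difference of 1.24 ± 0.50 (limma, adjusted p = 0.998) that was larger than any metformin difference of this gene. Ppargc1a averaged 6.41 ± 0.42 on day 14 and 6.95 ± 0.24 on day 1, a difference of -0.54 ± 0.22 (limma, adjusted p = 0.354). For Pck1 the control means were 17.60 on day 14 and 17.13 on day 1, a difference of 0.47 ± 0.49 that was not called (limma, adjusted p = 0.853). Crtc2 control livers of day 3, at 7.67 to 7.83, and of day 14, at 7.68 to 8.13, did not overlap those of day 1, at 7.51 to 7.61. The differences of 0.18 ± 0.12 and 0.25 ± 0.12 were not called, and 1.73% and 3.21% of tested genes had such groups with the later day higher.

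The other genes of the pathway were read from lists of related enzymes, carriers and regulators, also chosen with earlier results of these data known. None of 20 tested enzymes of the reversible and shared steps was called on day 14 by limma (3 at an unadjusted p under 0.05, against 16.8% of tested genes), and their median difference was 0.06. Got1, the cytosolic aspartate aminotransferase, differed by -1.11 ± 0.35 (limma, adjusted p = 0.0887), and Ldha, a lactate dehydrogenase subunit, by 0.31 (adjusted p = 0.113). Pck2, the mitochondrial carboxykinase, averaged 6.26 ± 0.12 in metformin livers and 6.18 ± 0.14 in control livers on day 14. Its difference was 0.08 ± 0.09, beside -3.74 for Pck1.

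Among 25 genes of transport and substrate entry, 2 rose and 2 fell on day 14, against 2.07% and 1.22% of tested genes, with a median of -0.02. Sds, the serine dehydratase that turns serine into pyruvate, measured 7.14, 5.40, 6.83 and 6.67 in metformin livers, against 9.45, 8.06, 8.30 and 8.25 in control livers. All metformin rats were lower, and Sds fell by 2.01 ± 0.42 on the log2 scale (limma, adjusted p = 0.0126). Over days 1, 3 and 14 Sds averaged 6.48, 6.24 and 6.51 in metformin livers and 6.86, 6.74 and 8.52 in control livers. The control livers of day 14 were the group that stood apart, higher by 1.66 ± 0.42 than on day 1 (limma, adjusted p = 0.0453) and by 1.77 ± 0.42 than on day 3 (limma, adjusted p = 0.0475). Each of these calls was kept in 8 of 24 fits that left 1 array out, with adjusted p up to 0.174 (without control rat 1 of day 14) for day 1 and up to 0.159 (without control rat 3 of day 3) for day 3. Slc38a4, an amino acid transporter, fell by 0.38 ± 0.09 (adjusted p = 0.0266), with metformin rat 1 inside the control range. Mpc2, a subunit of the mitochondrial pyruvate carrier, averaged 10.95 ± 0.12 in metformin livers and 10.47 ± 0.14 in control livers, a rise of 0.48 ± 0.09 (limma, adjusted p = 0.00617). Metformin livers of days 1 and 3 averaged 11.14 and 11.06, and the control livers of those days both 11.01, so the control livers of day 14 were the ones that stood lower, by 0.54 ± 0.09 against day 1 (adjusted p = 0.00122). Tkfc, triokinase, which phosphorylates glyceraldehyde, rose by 1.14 ± 0.28 (adjusted p = 0.0266). Its groups overlapped narrowly, with metformin rat 1 at 12.62 and the highest control at 12.63. Slc2a2, the hepatic glucose transporter, differed by 0.10 ± 0.21 and was not called.

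Of 8 tested glycolytic enzymes and regulators that oppose the pathway, 2 rose on day 14, against 2.07% of tested genes. Pklr, the liver pyruvate kinase, lay between 15.78 and 17.68 in metformin livers and between 14.27 and 15.69 in control livers. The groups did not overlap, and Pklr rose by 1.38 ± 0.32 (limma, adjusted p = 0.0218). Pfkfb1, the bifunctional enzyme that sets fructose-2,6-bisphosphate in liver, averaged 11.89 ± 0.28 in metformin livers and 10.73 ± 0.36 in control livers and rose by 1.16 ± 0.28 (adjusted p = 0.0249).

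**Figure D4:**
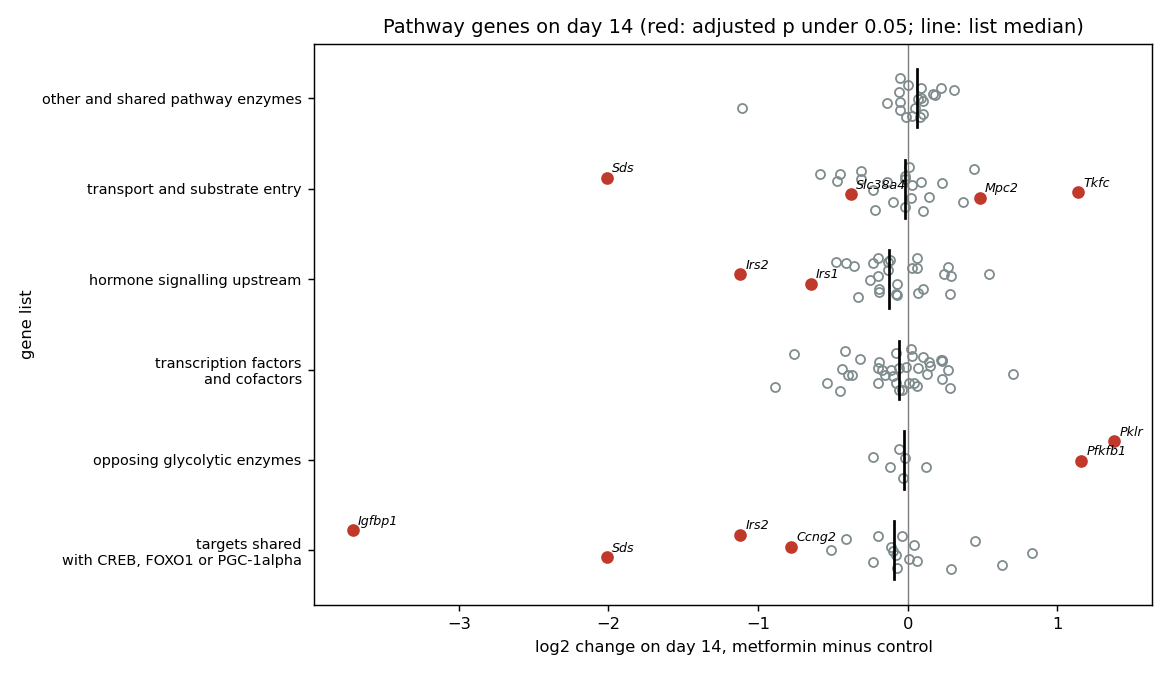
Log2 change on day 14, metformin minus control, of each tested gene in 6 lists of pathway genes, with called genes in red and named, other genes as open circles and the list median as a black line (4 rats per group; height within a row has no meaning). Medians lie between -0.12 and 0.06, and Sds and Irs2 stand in 2 lists each.

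Of 28 genes of hormone signalling, 2 fell on day 14, against 1.22% of tested genes, with a median of -0.12. Irs2, an insulin receptor substrate, measured 6.51, 6.71, 6.67 and 6.29 in metformin livers, against 8.29, 7.27, 7.59 and 7.53 in control livers, without overlap, and fell by 1.12 ± 0.29 (limma, adjusted p = 0.0361). Irs1, the related substrate, fell by 0.65 ± 0.17 (adjusted p = 0.0422). Its effect of day 14 minus that of day 1 was -1.30 ± 0.25 (limma, adjusted p = 0.0116), since it averaged 10.53 ± 0.10 in metformin livers and 9.88 ± 0.33 in control livers on day 1. Gcgr, the glucagon receptor, differed by 0.27 ± 0.19 on day 14 and was not called. None of 39 transcription factors and cofactors was called on day 14 (10 at an unadjusted p under 0.05, against 16.8% of tested genes, median -0.06), including Hnf4a at -0.06 ± 0.15. Of these 39, 2 were called lower in the effect of day 14 minus that of day 1, against 1.09% of tested genes. They were Ppara, the fasting-linked nuclear receptor, at -1.42 ± 0.28 (limma, adjusted p = 0.0154), and Creb3l3, a liver CREB-family factor, at -1.13 ± 0.22 (limma, adjusted p = 0.0153). Ppara averaged 10.67 ± 0.32 in metformin livers and 9.70 ± 0.27 in control livers on day 1, and 9.02 ± 0.37 in metformin livers and 9.46 ± 0.32 in control livers on day 14.

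Among 20 textbook targets of CREB, FOXO1 or PGC-1alpha, 4 fell and 0 rose on day 14, against 1.22% and 2.07% of tested genes, with a median of -0.09. Beside Sds and Irs2, these were Ccng2, a cyclin-like protein, which fell by 0.78 ± 0.20 (adjusted p = 0.0305), and Igfbp1, an insulin-repressed IGF-binding protein. Igfbp1 measured 7.59, 10.65, 7.52 and 6.97 in metformin livers, against 12.10, 9.90, 12.33 and 13.21 in control livers. Metformin rat 2 alone lay inside the control range, and Igfbp1 fell by 3.71 ± 0.99 (limma, adjusted p = 0.0414). Most of these calls were lost when 1 of certain rats was left out. Of 11 called genes named here from the lists and the periportal markers (Asl among them), 9 lost their call without control rat 1 of day 14 (adjusted p of 0.0662 to 0.168), all but Mpc2 and Asl. Metformin rats 2 and 4 of day 14 each ended 7 calls, metformin rat 3 and control rat 4 ended 5 each, control rats 2 and 3 ended 3 each, and metformin rat 1 ended 1. For Irs1, the least firm, 5 arrays of the earlier days did so too, with adjusted p of 0.0501 to 0.0524. On days 1 and 3 limma called no gene of the 6 lists, against 0.0152% and 0.254% of tested genes. Of the list genes called on day 14, only Irs1 was also called in the effect of day 14 minus that of day 1. Igfbp1 differed by -1.43 ± 0.99 on day 1 and by -1.42 ± 0.99 on day 3. Its effect of day 14 minus that of day 1 was -2.28 ± 1.40 (limma, adjusted p = 0.507). That effect was -1.63 for Sds (limma, adjusted p = 0.187), -1.28 for Irs2 (0.122) and 1.66 for Pklr (0.0673). At an unadjusted p under 0.05, day 1 held 0 of 20 shared-step enzymes, 1 of 25 transport genes and 3 of 28 signalling genes. It also held 7 of 39 factors, 1 of 8 glycolytic genes and 4 of 20 targets, against 8.22% of tested genes. In the same order, day 3 held 1, 3, 1, 4, 1 and 4, against 13.6%. The genes with the smallest p on day 1 included Ppara at 0.98 (adjusted p = 0.119) and Creb3l3 at 0.73 (adjusted p = 0.148), and on day 3 Pdk4, a kinase that inhibits pyruvate dehydrogenase, at -0.93 (adjusted p = 0.147).

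Markers of the cells of liver and nearby tissue were read beside these results. On day 14, 2 of 10 periportal hepatocyte markers fell, Sds and the urea cycle enzyme Asl, against 1.22% of tested genes called lower. Asl measured 12.59, 12.53, 12.57 and 12.19 in metformin livers, against 13.47, 13.42, 13.32 and 13.30 in control livers, and fell by 0.91 ± 0.14 (limma, adjusted p = 0.00134). Of the 10 periportal markers, 9 were lower in metformin livers, with a median of -0.20. Control livers moved between days: 4 of the 10 were called higher on day 14 than on day 3 (median 0.49), against 0.132% of tested genes, and 2 of 10 higher than on day 1 (median 0.35), against 0.259%. Their log2 summed intensity was 19.90 to 20.11 in metformin livers and 20.15 to 20.33 in control livers of day 14, while metformin livers of day 1 lay at 19.87 to 20.04 and control livers of day 1 at 19.99 to 20.19, and metformin livers of day 3 at 19.83 to 20.07 and control livers of day 3 at 19.93 to 20.01. The sums of the metformin livers thus overlapped on all 3 days, and those of the control livers of day 14 were above those of day 3. On day 14 none of 10 pericentral markers was called (median 0.11). Their summed level on that day was 19.86 to 20.20 in metformin livers and 19.80 to 20.21 in control livers. On day 1, 1 of the 10 was called higher, against 0.0152% of tested genes. It was Axin2, at 0.83 ± 0.14 (limma, adjusted p = 0.0332), without overlap between the groups. The 10 did not move together on day 1: 5 were higher and 5 lower in metformin livers, with a median of -0.02. The Axin2 call was lost under quantile normalization, loess, every probe set and day 1 fitted alone, where 0 genes were called. None of 11 Kupffer cell markers was called on day 14, though all 11 were lower (median -0.22), with a summed level of 13.55 to 14.08 in metformin livers and 13.12 to 14.40 in control livers. None of 9 endothelial markers was called, with all 9 lower (median -0.20) and a summed level of 13.96 to 14.77 in metformin livers and 14.06 to 14.90 in control livers. Kidney tubule markers could mark tissue that also expresses Pck1. The 7 on the array summed to 8.68 to 9.02 in metformin livers and 8.49 to 8.63 in control livers, with 0 of 6 tested ones called. Their mean log2 on day 14 was 5.21 in metformin livers and 5.16 in control livers. These means lay close to the array medians of 4.80 to 5.11, so the sums are of dim probe sets. The part of zone or cell type in the Pck1 and Crtc2 differences was not tested.

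The genes most like each member were ranked by Pearson correlation over the 24 arrays, which share groups and normalization, so these are descriptions. For Pck1 the closest were Wbp1l (r = 0.87), Mt2A (0.85) and Nr2c2 (0.84), and the correlations of deviations from group means were 0.51, 0.32 and 0.64. In the opposite direction Odad4 (-0.94), Itprid2 (-0.90) and Pdhx (-0.89) ran lowest, with correlations of deviations of -0.85, -0.66 and -0.65. For G6pc1 the closest was Sik1, a kinase induced by cyclic AMP that phosphorylates the CRTC coactivators, with r = 0.79, Spearman's rho of 0.75 and a correlation of deviations of 0.75, followed by Itih3 (0.73) and Depp1 (0.71). Foxo1 ran closest to Klf13 (0.89), Ccdc6 (0.86) and Mcm2 (0.83), and Crtc2 to Ube2r2 and Washc2c (both 0.81) and Pcbp4 (0.78). Ppargc1a ran closest to Lifr and Col4a2 (both 0.81) and H1f4 (0.80). For Fbp1 they were Slc35a5 (0.71), Lsm14b (0.69) and Tec (0.68), for Pc Fzd4 (0.74), Fhip1a (0.73) and Oit3 (0.72), and for Slc37a4 Aph1bl2 (0.75), Mecr (0.73) and Tek (0.70).

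**Figure D5:**
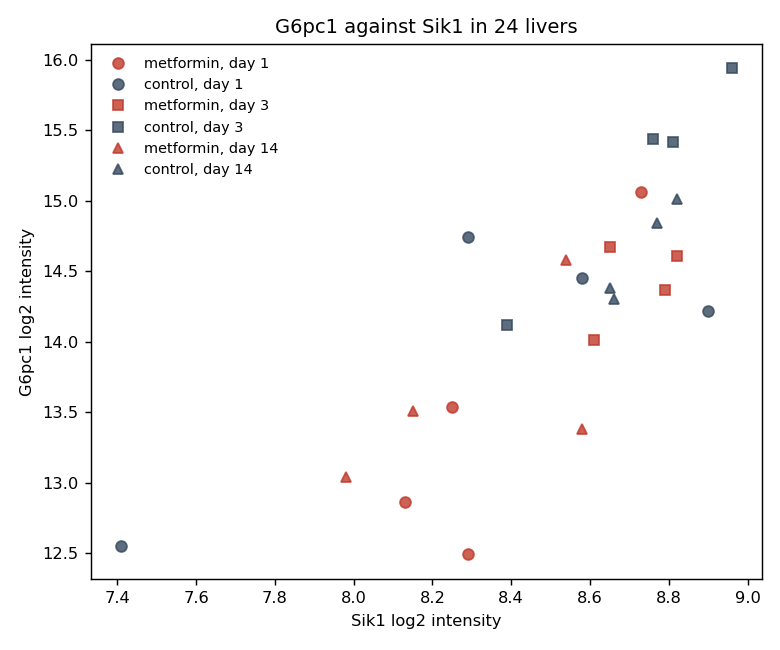
G6pc1 against Sik1, both as log2 intensity, in the 24 livers, with 1 point per rat, colour for treatment and symbol for day. The points rise together (r = 0.79) within and across groups, and the control rat of day 1 at a Sik1 of 7.41 has a G6pc1 of 12.55.

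The members did not all run together across livers. Pck1 and Crtc2 correlated at 0.67 over the 24 arrays and at 0.12 once group means were removed, and Pck1 and Foxo1 at 0.51 and 0.05. Pck1 and G6pc1 had a Pearson r of 0.37, a Spearman rho of 0.67 and a correlation of deviations of 0.10. Within groups, the pair of Pck1 and Fbp1 had the highest correlation among the 28 pairs at 0.43, and Ppargc1a and Crtc2 the lowest at -0.47.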

How the data were processed

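RNA from 24 rat livers was measured on Affymetrix arrays. For each probe set and array the authors deposited a linear intensity made with RMA, per the submitters' processing notes; the software version is not given in the sources used here. Intensities reached 982564 to 994415 per array, beyond a scanner's usual range, by a rescaling that is not documented here, and folds hold on the deposited scale. RMA shrinks differences of dim probe sets. Precision is limited by the number of arrays.

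Log2 was taken with no pseudocount. Of 68842 probe sets, 23446 had 1 symbol, 505 several and 44891 none; 22077 were matched by Entrez identifier, which replaced 1 symbol. The probe set with the highest mean stood for each gene. Tested genes exceeded the 30th percentile of all values (19.475, or log2 4.28) in at least 4 arrays. limma 3.58.1 in R 4.3.3 fitted 1 mean per group over all 24 arrays (9 contrasts, 3.51 prior degrees of freedom, two-sided p, Benjamini-Hochberg over all tested genes). The steps were tested on simulated data. Alternatives were other normalizations, filters, probe set rules, a pseudocount, variance models, array weights, a replicate block, single days, and each array left out.

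The members and gene lists were chosen with earlier results of these data known. Named genes are all members, up to 4 called genes per list by p (else up to 2 with the smallest p), the 3 genes most correlated with each member and the 3 least with Pck1, and Sds, Pck2, Pklr, Slc2a2, Igfbp1, Irs2, Hnf4a and Gcgr. Of these, some values of genes that were not called are left out for length. Replicates are separate animals per the labels, and cages were not modelled. Gene positions and promoters come from RefSeq GRCr8.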

Additional observations from a re-analysis of the deposited data

Results flagged for a closer look

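Pck1 in metformin rat 2 of day 14 measured 11.66 on the log2 scale, against 14.44 to 14.82 in the other 3 metformin rats, and lay far from its group. Crtc2 in control rat 2 of day 14 measured 8.13, against 7.68 to 7.73 in the other 3 control rats, and lay far from its group. Of 48 groups of 4 (8 genes in 6 groups) these 2 stood out, and chance alone picks about 1 in 20. These arrays were not unusual over all genes: by the same measure metformin rat 2 stood apart in 1.24% of tested genes and control rat 2 in 1.45%, within the range of 0.584% to 2.34% over the 24 arrays.

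The metformin effect differed between day 14 and day 1 for Pck1 by -3.83 and for Crtc2 by -0.67 on the log2 scale, each by limma's test of that difference. The Pck1 difference was called in 24 of 24 fits that left 1 array out, with adjusted p of 0.00294 to 0.0229, and the Crtc2 difference in 3 of 24.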

How the results depend on the processing

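The Pck1 difference of day 14 was between -4.06 and -3.00 when single arrays were left out (adjusted p of 0.000173 to 0.00394) and was lost with the 8 arrays of day 14 alone (adjusted p = 0.0512). Crtc2 on day 14 was between -0.62 and -0.45 and was lost with day 14 alone (adjusted p = 0.116) and with every probe set tested (0.0569). Members called on day 14 were then 0 with day 14 alone and 1 with every probe set, and 1 to 2 without single arrays. For day 14 minus day 1, 1 member was called under quantile normalization, cyclic loess, median centring, no filter, every probe set and the replicate block (Crtc2 adjusted p of 0.0676, 0.0542, 0.0677, 0.0597, 0.165 and 0.0642), and 1 to 3 without single arrays; Foxo1 passed in 2 of these 24 fits (lowest adjusted p = 0.0451). Of the 11 genes of the lists and periportal markers called on day 14, 10 lost the call with day 14 alone (all but Asl), 8 with every probe set, 2 under loess and with weights, and 1 each under quantile normalization, no filter (Irs1 in both) and the replicate block (Igfbp1, adjusted p = 0.0554). With every probe set Creb3l3 and Ppara lost theirs for day 14 minus day 1 (both 0.0534). Calls of Acly and of genes named for their correlation with a member were not checked in this way.

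Counts of all genes called moved more. Day 1 (3 genes) gave 0 under quantile normalization, loess, every probe set and the day alone, 1 under centring and the replicate block, 27 with array weights, and 0 to 14 without single arrays. Day 3 (50) gave 27 with every probe set, 267 with weights, 0 for the day alone and 1 to 372 without single arrays. Day 14 (648) gave 225 with every probe set, 48 for the day alone and 153 to 968 without single arrays. Day 3 minus day 1 (0) gave 4 under quantile normalization and a pseudocount of 16, 3 under loess, 1 under centring and the trended robust fit, 13 with weights and 0 to 11 without single arrays. Day 14 minus day 1 (326) gave 63 with every probe set, 610 with weights, 208 with the replicate block and 137 to 547 without single arrays. Day 14 minus day 3 (1) gave 2 under loess, 3 with weights, 0 with every probe set, the pseudocount, the robust fit and the block, and 0 to 6 without single arrays. Control day 14 minus day 3 (175) gave 320 with weights and 94 to 229 without single arrays.

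Sign changes were confined, among the member results, to differences that were not called. Fbp1 was -0.02 on day 3 under quantile normalization and 0.01 for day 3 minus day 1 under centring. Slc37a4 was -0.03, -0.04 and -0.01 on day 3 and 0.02, 0.04 and 0.06 for day 14 minus day 3 under quantile normalization, loess and weights, and -0.01 and -0.00 on day 14 under the first and second. Without single arrays, day 1 ran from -0.13 to 0.33 for Pck1, -0.03 to 0.12 for Fbp1 and -0.02 to 0.16 for Slc37a4; day 3 from -0.02 to 0.08 for Fbp1, -0.09 to 0.15 for Slc37a4 and -0.16 to 0.17 for Ppargc1a; day 14 from -0.03 to 0.05 for Pc, -0.08 to 0.07 for Slc37a4 and -0.09 to 0.31 for Ppargc1a. Day 3 minus day 1 ran from -0.68 to 0.21 for G6pc1, -0.09 to 0.06 for Fbp1, -0.16 to 0.08 for Slc37a4 and -0.16 to 0.04 for Foxo1; day 14 minus day 1 from -0.83 to 0.02 for G6pc1 and -0.15 to 0.03 for Slc37a4; day 14 minus day 3 from -0.51 to 0.18 for G6pc1, -0.14 to 0.10 for Slc37a4 and -0.08 to 0.32 for Ppargc1a. In controls, day 3 minus day 1 ran from -0.14 to 0.02 for Pc, -0.08 to 0.11 for Slc37a4 and -0.29 to 0.04 for Ppargc1a, day 14 minus day 1 from -0.10 to 0.03 for Fbp1, and day 14 minus day 3 from -0.34 to 0.00 for Pck1, -0.03 to 0.10 for Foxo1 and -0.04 to 0.11 for Crtc2. The cause of these changes was not tested.

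The labels only number the replicates, so the main fit did not pair same-numbered samples. Deviations of 60 same-numbered pairs correlated at -0.16 to 0.19, 4 of them over 0.1. Such correlations cannot show whether same-numbered rats shared a cage, hour of death or batch. With 4 rats per group, standard errors were 0.49 for Pck1 and 0.50 for G6pc1, which limits what can be seen in either. Feeding state, hour of death, cage and array batch are absent from the labels, so their part could not be tested, and background correction could not be varied without scanner files.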

Other observations

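The gene that ran most opposite to Pck1, Odad4, an axonemal protein gene, lies 15834 bases from Acly on chromosome 10 (GRCr8) with 1 gene between them. Acly encodes ATP citrate lyase, which supplies acetyl-CoA for fatty acid synthesis, and it was singled out after its values were seen. Odad4 and Acly correlated at 0.83 over the 24 arrays. On day 14 Acly rose by 2.45 ± 0.35 (limma, adjusted p = 0.000842) and Odad4 by 1.11 ± 0.22 (limma, adjusted p = 0.0105), and neither gene's groups overlapped.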
